A study of Mus musculus with 6 samples.

Results

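The hypothalamus is patterned in the ventral forebrain by a small set of transcription factor genes, and its neuroendocrine neurons later make peptide hormones such as somatostatin. The genes described here are 9 of these: the transcription factor genes Sim1, Sim2, Arnt2, Otp, Nkx2-1, Nkx2-2 and Foxb1, and the peptide genes Pomc and Sst. Members were the array probe sets annotated to exactly 1 of these symbols, with no filter on brightness. Each gene had 1 such probe set, giving 9 of the 21789 probe sets with 1 gene symbol, of 35556 in all. Sim1 and Sst were picked for their pattern in these same arrays, Sim1 because its p-value was among the smallest of the genes higher in KO heads. Sst was the 1 gene called of 11802 in a fit with dim genes removed and WT head 1 left out. Their values are therefore a description and carry no p-value.

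Transcript levels were measured at E10.5 in the dissected forebrain and midbrain of 3 heads labelled Taspase1 knock-out (Tasp1-/-, here KO) and 3 heads labelled wild type (WT), each a separate embryo read on 1 Affymetrix array. Both groups were C57Bl6 embryos from crosses of Tasp1+/- parents, and the sources used here do not say which part of Tasp1 the knock-out allele lacks. The product of Tasp1 is a protease whose known substrates include the histone methyltransferases KMT2A and KMT2B and the TFIIA precursor, and the comparison asked which genes depend on it during development. Values are deposited log2 signals, so a difference of 1 is a doubling of signal, and differences are KO minus WT.

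In the mouse, SIM1 and OTP are required for the neurons of the paraventricular and supraoptic nuclei, which release hormones or their releasing factors. SIM1 and its paralog SIM2 are bHLH-PAS proteins that bind DNA only as pairs with a partner such as ARNT2. SIM2 is needed in mouse for normal expression of thyrotropin-releasing hormone and somatostatin in the anterior hypothalamus. NKX2-1 specifies ventral hypothalamus, NKX2-2 marks a ventral stripe next to it and along the neural tube, and FOXB1 is needed for the mammillary region. POMC is the precursor of melanocortins and ACTH, and somatostatin inhibits the release of growth hormone and other hormones.

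The Sst gene is known for the cyclic AMP response element of its promoter, the site on which the factor CREB was characterised in the rat gene. Its promoter is shown because Sst had the largest difference of the 9 genes, and that of Sim1 because it was the other gene picked for its pattern. The sequences are the 250 bases before the start of transcription, from RefSeq in build GRCm38.p6, on the strand of the gene, at chr16:23890845-23891094 (minus strand) and chr10:50895401-50895650 (plus strand). Capitals mark the motif TGACGTCA.
Sst: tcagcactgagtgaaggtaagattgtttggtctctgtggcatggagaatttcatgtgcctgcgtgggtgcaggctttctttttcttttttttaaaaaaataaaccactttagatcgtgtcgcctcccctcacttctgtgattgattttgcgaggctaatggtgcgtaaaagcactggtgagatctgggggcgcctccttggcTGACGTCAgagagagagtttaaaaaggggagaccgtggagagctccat
Sim1: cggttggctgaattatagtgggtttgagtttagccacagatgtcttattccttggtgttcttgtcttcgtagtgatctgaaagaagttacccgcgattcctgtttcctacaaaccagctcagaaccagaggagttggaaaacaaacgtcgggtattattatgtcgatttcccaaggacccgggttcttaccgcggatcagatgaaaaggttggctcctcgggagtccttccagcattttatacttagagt
In the Sst window the motif begins 48 bases before the start, and it reads the same on both strands. It occurred in 508 of 32851 promoter windows of that length (1.55%), and in 1 of the 7 genes with a window here. The 7 are Sim1, Arnt2, Otp, Nkx2-1, Nkx2-2, Pomc and Sst. The letters ACGTG, the core of bHLH-PAS sites, were found on either strand in 2 of the 7, Nkx2-2 and Pomc, against 16.6% of all windows. In the Nkx2-2 window these letters overlap on opposite strands as CACGTG. The letters AAGTG, the core of NKX2 sites, were found in 3 of the 7, Nkx2-1, Nkx2-2 and Sst, against 40.7% of all windows. These are letter matches in short windows and were not tested for binding.

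The arrays were alike, with array medians of 7.35 in WT head 1 and from 7.42 to 7.45 in the other heads. Pearson correlations across probe sets ran from 0.996 to 0.998 between pairs. WT head 1 stood apart on the leading principal component, with a score of 16.9, the others lying between −10.2 and 5.15. WT head 2 had the Xist and Y-linked signals of a female (Xist 12.3, Kdm5d 5.48), and the other 5 heads, all 3 KO heads among them, those of males (Xist at most 5.24), so sex was not balanced. The Tasp1 probe set was not lower in KO heads, at 8.63, 8.63 and 8.50 in KO heads and 8.10, 8.45 and 8.49 in WT heads. Its place relative to the deleted part is not known here, so it does not check the labels, and KO and WT below mean heads so labelled. Of the 8 genes fixed as forebrain and midbrain markers 7 were measured, and Otx2 lay between 11.3 and 11.6 in every head. In that list 4 genes were higher and 3 lower in KO heads, with a median of +0.04. The higher genes were Otx2 (+0.04) and the midbrain genes En1 (+0.08), En2 (+0.16) and Wnt1 (+0.07). All of these overlapped between the groups. The lower genes were Lhx2, Emx2 and Pax6 (−0.06), of which Pax6 overlapped. Lhx2, a gene of the cerebral cortex, eye and diencephalon, read 11.09, 10.95 and 10.85 in KO heads, against 11.33, 11.20 and 11.34 in WT heads. Emx2, a gene of the dorsal telencephalon, read 9.31, 9.25 and 9.21 in KO heads, against 9.74, 9.36 and 9.63 in WT heads. Neither overlapped, and their differences of −0.33 and −0.32 had unadjusted p-values of 4.6e-04 and 0.0042 but did not pass (limma, adjusted p = 0.296 and 0.58). Over all probe sets 6.76% were lower in KO heads without overlap. Whether the share of forebrain tissue differed between the heads was not tested. Of 6 measured hindbrain markers 5 lay below a log2 signal of 6.24. That level is the 95th percentile of 1210 probe sets for olfactory and vomeronasal receptor genes, which are not known to be used in this tissue, and serves here as a mark of dim signal. Only Pomc of the 9 genes came near it.

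Sim1 and Sim2 were higher in all KO heads than in any WT head, at 1.24 and 1.29 times the WT signal, while their partner gene Arnt2 differed by little. Sst was lower in KO heads on average, but 1 of the WT heads lay among the KO heads. Otp, Nkx2-1, Nkx2-2, Foxb1 and Pomc overlapped between the groups. None of the 7 genes not picked for their pattern passed the test over all probe sets (limma, adjusted p from 0.332 to 0.937). In the same fit 0 of 21789 probe sets passed (0%), against 1354 (6.21%) at an unadjusted p under 0.05, 2.32% of all being higher and 3.89% lower in KO heads. Of the 7 genes 2 were under that level, Sim2 and Nkx2-2, both higher. The groups did not overlap for 2 of the 9 genes, both higher in KO heads. Over all probe sets 4.15% were higher in this way and 6.76% lower. Sim1 is one of the 2 genes and was picked on this contrast, so nothing is read from that count. With or without overlap, 43.7% of all probe sets had a higher mean in KO heads. The counts of higher and lower genes in each list are to be set beside that share.

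**Figure D1:**
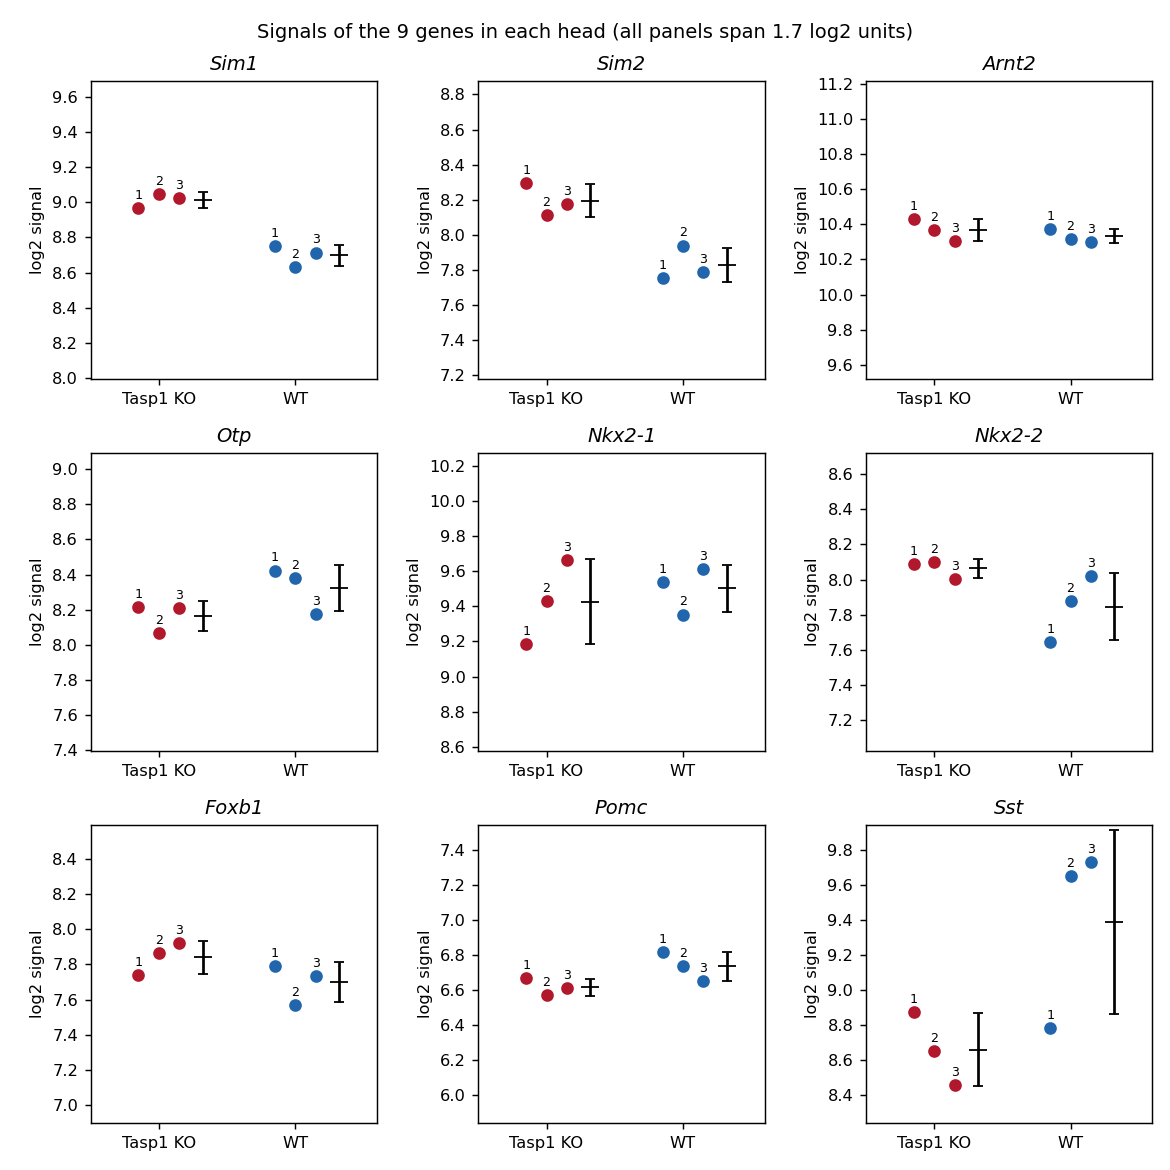
Log2 signal (vertical axis, 1.7 units in every panel) of each gene in the KO heads (left, red) and WT heads (right, blue), with replicate numbers, and the mean with its SD beside each group. Sim1 and Sim2 separate the groups, and the Sst signal of WT head 1, at 8.78, lies within the KO range of 8.46 to 8.87.

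Sim1 (probe set 10363056, chromosome 10) read 8.97, 9.05 and 9.02 in KO heads, against 8.75, 8.63 and 8.71 in WT heads. The lowest KO head was above the highest WT head, and the spread within each group was small beside the gap. KO heads averaged 9.01 ± 0.04 and WT heads 8.70 ± 0.06 (SD, n = 3 each), with a difference of +0.31 (SE 0.06), or 1.24 times the WT signal. Without WT head 1 the difference was +0.34, and without the female WT head 2 it was +0.28. In a bulk sample, more cells that use a gene and more RNA per cell cannot be told apart, here and for every gene below.

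Sim2, the paralog (probe set 10437055, chromosome 16), had the same arrangement. It read 8.30, 8.11 and 8.18 in KO heads, against 7.76, 7.94 and 7.79 in WT heads, again with no overlap. KO heads averaged 8.20 ± 0.09 and WT heads 7.83 ± 0.10 (SD, n = 3 each), with a difference of +0.37 (95% confidence interval 0.19 to 0.54), or 1.29 times. Sim2 stood at rank 49 of 21789 by p-value, with an unadjusted p of 7.5e-04 in limma, but did not pass adjustment (adjusted p = 0.332). The exact two-sided permutation test gave p = 0.1, the smallest that 3 heads against 3 can give. Without WT head 1 the difference was +0.33, and without WT head 2 +0.42. The heads within a group were not in the same order for the paralogs. KO head 1 was the highest for Sim2 and the lowest KO head for Sim1, and WT head 2 was the highest WT head for Sim2 and the lowest for Sim1.

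Arnt2 (probe set 10565292, chromosome 7), the partner of both SIM proteins, was bright and level. It read 10.43, 10.37 and 10.30 in KO heads, against 10.38, 10.32 and 10.30 in WT heads, and the groups overlapped over nearly their whole range. The difference was +0.04 (95% confidence interval −0.08 to 0.15; limma, adjusted p = 0.933), so that a signal ratio above 1.11 or below 0.95 lies outside the interval.

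**Figure D2:**
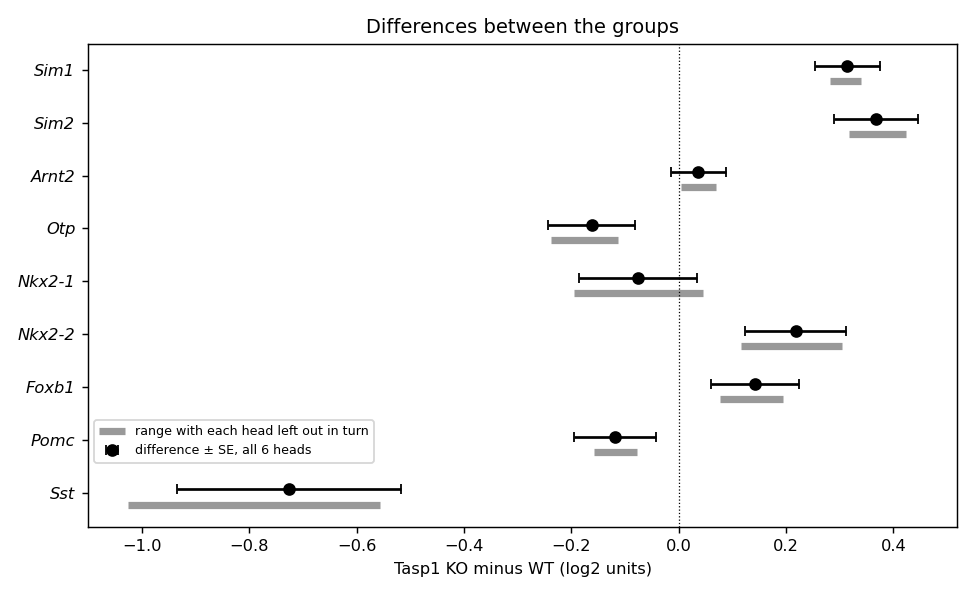
Difference between KO and WT heads in log2 units (horizontal axis) for each gene. Black points with bars are the difference and its SE over all 6 heads, and grey bars span the values with each head left out in turn. The grey bars run from 0.28 to 0.34 for Sim1 and from 0.32 to 0.42 for Sim2. As the groups did not overlap for these genes, leaving a head out could not change their side. The grey bar of Sst (−1.03 to −0.56) is the widest.

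Otp (probe set 10406714, chromosome 13), which encodes a homeodomain protein of the same neuroendocrine lineages as SIM1, did not share the direction of Sim1. It read 8.21, 8.06 and 8.21 in KO heads, against 8.42, 8.38 and 8.18 in WT heads, with WT head 3 inside the KO range. The difference was −0.16 (95% confidence interval −0.34 to 0.02; limma, adjusted p = 0.829), and −0.11 without WT head 1.

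Nkx2-1 (probe set 10400474, chromosome 12), the selector gene of ventral hypothalamus, varied more between KO heads than between the groups. It read 9.18, 9.43 and 9.67 in KO heads, against 9.54, 9.35 and 9.62 in WT heads. The difference of −0.08 (95% confidence interval −0.32 to 0.17) did not pass (limma, adjusted p = 0.937), and it turned to +0.04 without KO head 1.

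Nkx2-2 (probe set 10488366), a gene that responds to Sonic hedgehog in the ventral neural tube, read 8.09, 8.10 and 8.00 in KO heads, against 7.64, 7.88 and 8.02 in WT heads. WT head 3 lay above the lowest KO head. The difference was +0.22 (95% confidence interval 0.01 to 0.43) with an unadjusted p of 0.041, and it did not pass (limma, adjusted p = 0.792). It fell to +0.12 without WT head 1, the lowest head, so its size rests largely on that head. Nkx2-2 lies on chromosome 2, as Tasp1 does, with 36 protein-coding genes between them in assembly GRCm38.p6. Of the 34 measured among these, 18 were higher and 16 lower in KO heads. The groups did not overlap for 3 of the higher and 4 of the lower genes, where 10.9% of all probe sets did not overlap in either direction. Of the 34, 3 had an unadjusted p under 0.05 in limma, against 6.21% of all probe sets. The immediate neighbours of Nkx2-2, the related gene Nkx2-4 (+0.0032) and Pax1 (−0.06), did not pass either (limma, adjusted p = 0.997 and 0.952). Farther out, Kiz (+0.17, 95% confidence interval 0.02 to 0.33) and Xrn2 (+0.08) were on the side of Tasp1. Foxa2 (−0.02) and Sstr4 (−0.0009) were on the other side. None of these passed (limma, adjusted p from 0.791 to 0.999), though Kiz was higher in all KO heads. Whether DNA linked to Tasp1 bears on the Nkx2-2 signal was not tested.

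Foxb1 (probe set 10594754, chromosome 9), the gene of the mammillary region, read 7.74, 7.86 and 7.92 in KO heads, against 7.79, 7.57 and 7.74 in WT heads. The groups overlapped, and the difference of +0.14 (95% confidence interval −0.04 to 0.33) did not pass (limma, adjusted p = 0.862). Without WT head 1 it was +0.19, and without WT head 2 +0.08.

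Pomc (probe set 10394240, chromosome 12) was the dimmest of the 9 probe sets, the only one below the level that marks the dimmest 40% of probe sets (7.06). It read 6.67, 6.57 and 6.61 in KO heads, against 6.81, 6.73 and 6.65 in WT heads. KO head 1 lay just above WT head 3. The difference of −0.12 (95% confidence interval −0.29 to 0.05) did not pass (limma, adjusted p = 0.874). Of the 1210 receptor probe sets 28 were at least as bright, and the background within its signal was not measured, so the ratio of signals is no ratio of transcripts.

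Sst (probe set 10438730, chromosome 16) had the largest difference and the least even groups. It read 8.87, 8.65 and 8.46 in KO heads, against 8.78, 9.65 and 9.73 in WT heads. WT heads 2 and 3 were higher than every KO head by at least 0.77, and WT head 1 was lower than KO head 1. KO heads averaged 8.66 ± 0.21 and WT heads 9.39 ± 0.52 (SD, n = 3 each), with a difference of −0.73 (SE 0.21), or 0.60 times the WT signal. Without WT head 1, the head that stood apart on the leading principal component, the difference was −1.03, and without WT head 2 or WT head 3 it was −0.60 or −0.56. The high heads were the female WT head 2 and WT head 3, a male by the same markers, as WT head 1 was. With the Xist signal as a covariate the difference was −0.60 (SE 0.23). Only WT head 2 was female, and whether sex bears on the Sst difference was not tested.

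Markers of neurons were set beside Sst head by head. The 10 genes of that list, among them Tubb3, Stmn2 and Dcx, had a mean deviation from each gene's mean of 0.14, −0.11 and −0.25 in KO heads, against 0.15, 0.16 and −0.10 in WT heads. Within the KO heads this order is that of Sst, and WT head 2 was high in both. WT head 3, with the highest Sst signal, had less neuronal signal than KO head 1 and WT head 1, whose Sst signals were 0.85 and 0.94 lower. As a list 9 of the 10 were lower in KO heads, where 43.7% of all probe sets were higher. The list had a median of −0.12 beside −0.012 over all probe sets, and 0 passed in limma. That median was −0.26 without KO head 1, −0.21 without WT head 3 and −0.03 without KO head 3. Nefm, a neurofilament gene, was the 1 member with an unadjusted p under 0.05 (−0.28; limma, adjusted p = 0.794). Over all probe sets 3.89% were lower at that level. The 5 measured markers of cranial sensory ganglia had mean deviations of 0.12, −0.11 and −0.13 in KO heads, against −0.05, 0.20 and −0.02 in WT heads. None of these neuronal and ganglion markers lay below the mark of dim signal. Their part in the Sst difference was not tested.

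**Figure D3:**
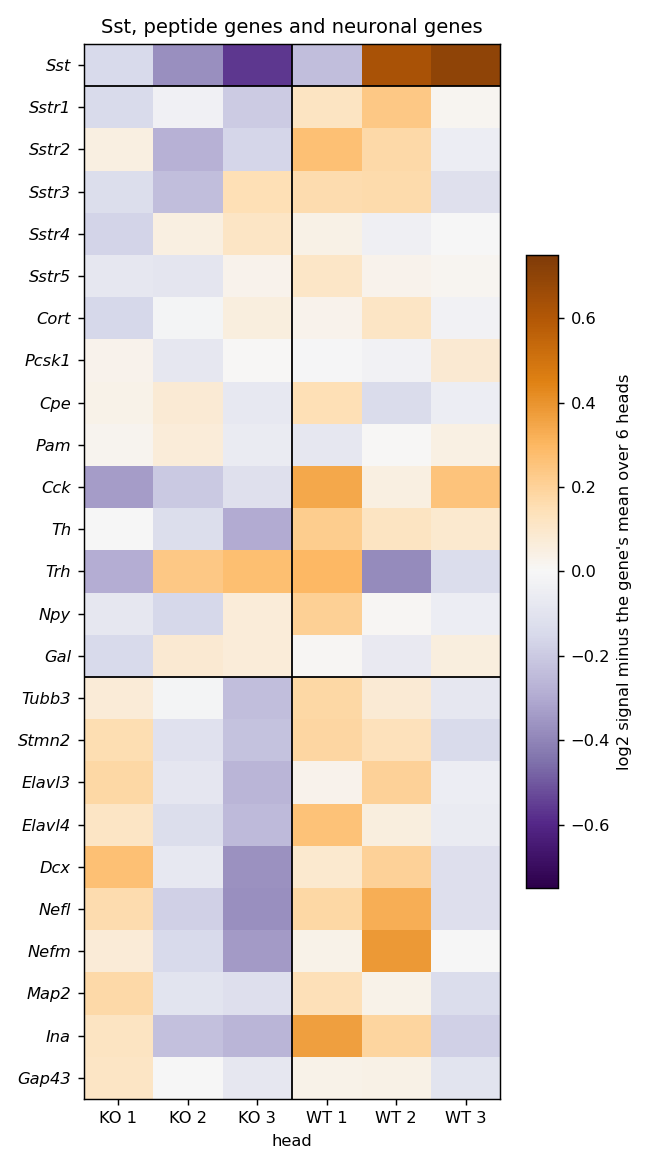
Log2 signal of each gene (rows) minus its mean over the 6 heads, in KO heads (left of the line) and WT heads (right). Sst is at the top, receptor, processing and other peptide genes are in the middle block and neuronal markers at the bottom; Sst is high in WT heads 2 and 3, whereas most neuronal markers are low in WT head 3.

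None of the somatostatin receptor genes passed the test, and Sstr1 and Sstr2 were the lowest in KO heads relative to WT heads. Sstr1 read 5.77, 5.89 and 5.72 in KO heads, against 6.04, 6.15 and 5.93 in WT heads, without overlap but below the mark of dim signal. Sstr2 read 7.01, 6.68 and 6.79 in KO heads, against 7.22, 7.13 and 6.91 in WT heads, with KO head 1 above WT head 3. Their differences of −0.25 and −0.26 had unadjusted p-values of 0.014 and 0.035 and did not pass (limma, adjusted p = 0.715 and 0.792). Over all probe sets 3.89% were lower at an unadjusted p under 0.05. Sstr3 (−0.14), Sstr4 (−0.0009) and Sstr5 (−0.10) did not pass either, nor did Cort (−0.08), which encodes the related peptide cortistatin. The melanocortin receptor genes Mc3r and Mc4r differed by −0.16 and −0.11, and the peptide-processing genes Pcsk1 and Cpe by −0.03 and +0.03. In the list of peptide receptors and processing, 18 genes were measured, 13 were lower and 5 higher, with a median of −0.03, and 0 passed in limma. Of these 18, 6 were below the mark of dim signal, Sstr1, Sstr5 and Mc3r among them.

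Many other neuropeptide and hormone genes were dim at this stage. Of 26 measured, 11 lay below the mark, Crh among them. In the list 18 were lower and 8 higher in KO heads, where 43.7% of all probe sets were higher. The median was −0.05, and 0 passed in limma. Trh, a gene of the SIM1 and SIM2 lineage, read 7.84, 8.36 and 8.40 in KO heads, against 8.42, 7.74 and 7.99 in WT heads, and the groups overlapped fully (+0.15, 95% confidence interval −0.24 to 0.54). Th, which encodes the enzyme that starts dopamine synthesis, was lower in all KO heads. It read 7.87, 7.75 and 7.57 in KO heads, against 8.09, 7.99 and 7.96 in WT heads (−0.28; limma, adjusted p = 0.646). Cck, a peptide gene singled out after its values were seen, read 6.12, 6.26 and 6.35 in KO heads, against 6.80, 6.51 and 6.71 in WT heads. Its difference of −0.43 had the smallest p of the list and did not pass (limma, adjusted p = 0.348). The Cck mean of the KO heads, 6.24, was at the mark of dim signal. Tac2, a tachykinin gene below the mark of dim signal, was the 1 gene of the list higher at an unadjusted p under 0.05 (+0.15; limma, adjusted p = 0.801). Over all probe sets 2.32% were higher at that level. Npy (−0.11), Gal (+0.0023) and Cartpt (+0.02) overlapped between the groups.

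Among the other bHLH-PAS genes and their coactivators, 15 were measured. KO heads had 6 of them higher and 9 lower, the median was −0.0075, and 0 passed in limma. Arnt, an alternative partner of SIM1 in vitro, differed by −0.0075 (95% confidence interval −0.12 to 0.10), Hif1a by +0.03 and Npas3 by +0.06. None of the 15 had an unadjusted p under 0.05, and the differences of the list ran from −0.12 to 0.11. The groups did not overlap for Ncoa3 (+0.11), higher in KO heads, nor for Arntl (−0.12) and Ahrr (−0.08), both lower. Such separation held for 10.9% of all probe sets in either direction. Ahrr lay below the mark of dim signal.

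Regulators of paraventricular and other neuroendocrine neurons were measured for 19 genes, of which 7 were higher and 12 lower in KO heads. The median was −0.09, and 0 passed in limma. Pou3f2, which acts after Sim1 and Otp in mouse and is needed for the neurons that make corticotropin-releasing hormone, was level at +0.0088 (95% confidence interval −0.14 to 0.16). Isl1 (−0.11), Lhx5 (+0.13) and Hmx3 (−0.16) overlapped between the groups. Of the 19, 1 was higher and 2 lower at an unadjusted p under 0.05, against 2.32% and 3.89% of all probe sets. These 3 were singled out after their values were seen. Plxnc1, a semaphorin receptor gene, was higher in all KO heads. It read 9.28, 9.36 and 9.19 in KO heads, against 9.03, 9.09 and 9.07 in WT heads (+0.21; limma, adjusted p = 0.607). Lhx9, a LIM homeodomain gene, had the largest difference of the list, with KO head 1 inside the WT range. It read 8.48, 8.09 and 7.86 in KO heads, against 8.69, 8.47 and 8.37 in WT heads (−0.37; limma, adjusted p = 0.782). Gsx1, a homeobox gene needed in mouse for normal growth hormone-releasing hormone, was lower in all KO heads. It read 7.39, 6.95 and 7.24 in KO heads, against 7.41, 7.49 and 7.46 in WT heads (−0.26; limma, adjusted p = 0.791). Separation of the groups, as for Plxnc1 and Gsx1, held for 10.9% of all probe sets in either direction.

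None of the genes that pattern the ventral forebrain and hypothalamus passed the test. Of 30 measured, 12 were higher and 18 lower in KO heads, and the median was −0.011. The 2 with an unadjusted p under 0.05, both lower, were the homeobox gene Dlx2 (−0.24) and Sox14 (−0.17), named for that reason (limma, adjusted p = 0.723 and 0.792). Over all probe sets 3.89% were lower at that level. The groups did not overlap for Sox14 and for Nkx6-2 (+0.06), where 10.9% of all probe sets did not overlap in either direction. Shh, the ventral signal, differed by −0.02 (95% confidence interval −0.20 to 0.16), and Foxa2, a gene of the floor plate, by −0.02 (−0.25 to 0.22). The early hypothalamic and eye field genes Rax (+0.04), Six3 (−0.10) and Six6 (−0.18) overlapped between the groups, as did Nkx2-9 (+0.16). Nkx2-4, a close relative of Nkx2-1 expressed in the same region, was level (−0.16 to 0.16, the 95% confidence interval). The mean deviation of the list ran from −0.03 to 0.02 in KO heads and from −0.03 to 0.03 in WT heads, which overlap.

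**Figure D4:**
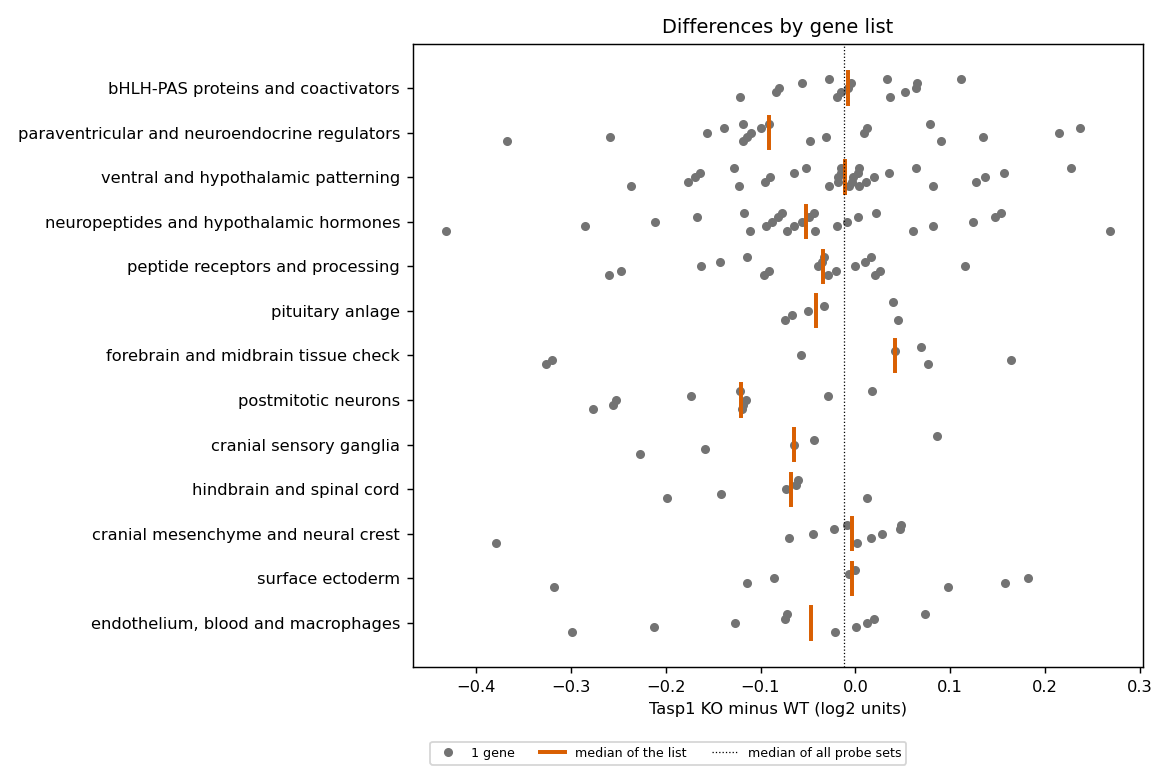
Difference between KO and WT heads in log2 units (horizontal axis) for every measured gene (points) of each list, with the median of the list (orange) and of all probe sets (dotted, −0.012). The list medians lie between −0.12, for postmitotic neurons, and 0.04, for the forebrain and midbrain markers.

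Over the 6 heads, the probe sets above the dimmest 40% whose signals were most like that of Sim1 by Pearson correlation were those of Grrp1 (r = 0.979), Tdp1, Dgat2, 6430503K07Rik and Apool (0.975). The most opposite were Nfe2l1 (r = −0.991), Ebf4 and Ninj1. For Sst the most alike were Ralb (r = 0.987), Pde6d, Ccdc171, H2-Q5 and Slc25a37 (0.978), and the most opposite were Mob4 (r = −0.989), H1f1 and Errfi1. These correlations describe 6 points that share the split into groups. Of 13072 probe sets compared, 187 had an r of at least 0.9 in size with Sim1 and 150 with Sst. None of the hypothalamic lists' genes was among those named, but with so few named of 13072, nothing is read from that. The spread of the most alike genes was often small, as for Ralb, with 8.73 to 8.75 in KO heads and 8.76 to 8.83 in WT heads.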

How the data were processed

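The authors deposited log2 signals, with 1 value for each probe set on each array. Array medians were so alike that the values were taken as already normalised, though that of WT head 1 was the lowest. With arrays centred on their medians the difference of Arnt2 was 0.0096, against 0.037 as deposited. Affymetrix Expression Console and MAS5 appear in the submitters' processing notes with no version or role. The way background was removed and probes were summarised was not given in the sources used here. 

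Signals were used without further scaling. Probe sets were named from the platform annotation: 21789 had 1 gene symbol, 1621 several and 12146 none listed. Chromosomes and gene order came from assembly GRCm38.p6, whose gene table matched 21698 of them. The sources used here name no build for the array annotation, and coordinates are printed only for RefSeq promoters.

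All 21789 probe sets were fitted with limma 3.58.1 in R 4.3.3 (lmFit, then eBayes with a trend of variance on mean, two-sided tests, Benjamini-Hochberg adjustment, threshold 0.05). Intervals are at 95%. No set test was run: lists are given by counts and medians, each gene by its brightest probe set. The number of arrays limits the precision.

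The members, lists and tests were chosen with earlier results of these data known. Named genes were the 9 members, a fixed set of pathway genes, any list gene past the threshold, and the genes most and least like Sim1 and Sst. Outside that rule, list genes with an unadjusted p under 0.05 or without overlap of the groups were named after their values were seen. So were Pitx1, Lhx8, Prrx1, En1, En2, Wnt1 and Pax6. Heads with the same replicate number did not deviate together (correlations −0.29 to −0.14), and no label states a pairing. The procedure was tested on simulated data for 21789 probe sets: of probe sets changed 1.25-fold it recovered 37 of 67, of those changed 1.5-fold 66 of 67, and of those changed 2-fold 66 of 66, with 14 false calls. These simulated probe sets were independent, so the shares are no detection rates for the real comparison.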

Additional observations from a re-analysis of the deposited data

How the results depend on the processing

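The limma fit over all heads was repeated under 19 planned settings and 1 chosen after seeing the data. Of 172 member differences so obtained, 171 kept their direction. The exception was Nkx2-1, at 0.045 without KO head 1 (−0.20 to 0.045 with each head left out). Filters alone, variance settings, the fit of all probe sets and the replicate block cannot change a difference, only its error. The 172 also include those of Sim1 and Sst, which were picked for their pattern, so the tally is no measure of support. None of the 132 for the 7 tested genes passed the threshold in limma. Over all settings Sim2 ran from 0.29 to 0.42 (adjusted p 0.259 to 0.966), Sim1 from 0.28 to 0.34 and Sst from −1.03 to −0.56. Pomc fell out under the filters, and Sim2, Otp, Nkx2-2 and Foxb1 under the 60% filter. With the replicate block, which leaves differences unchanged by construction, Sim2 was at 0.37 (limma, adjusted p = 0.637) and no probe set was called. The replicate block changed no call.

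The count of called probe sets was 0 in each direction in the fit over all heads (limma; 6.21% had an unadjusted p under 0.05). With each head left out it ran from 0 to 4 higher and from 0 to 4 lower. The 4 and 4 came without KO head 1, and 1 lower, Sst, without WT head 1. It was 1 higher with array quality weights, 9 lower when all 35556 probe sets of the array, those with several gene symbols or none included, were fitted in place of the 21789, and 1 lower, Sst, with 1 probe set per gene above the 40% filter and without WT head 1. Sst was picked because it was called in that last fit, so its calls here are no result. The cause of the changes in the count was not tested. The variance settings, the fit of all probe sets and the replicate block cannot change a list median. Of 244 list medians 240 moved by no more than the spread between heads, a tally that is no measure of support. The others were bHLH-PAS genes (0.035) and peptide receptors (0.023) with the 60% filter, which tests fewer genes, neuropeptides without KO head 2 (2.7e-05, from −0.089 to 2.7e-05 with each head left out) and peptide receptors without KO head 1 (−0.080, from −0.080 to −0.041). Dim probe sets such as Pomc and Sstr1 are limited by signal over background.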

Other observations

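Markers of the pituitary anlage, which lies against the ventral hypothalamus, were partly dim. Of 6 measured, 3 lay below the mark of dim signal, and the list had a median of −0.04 with 0 passing in limma. Pitx1, an early gene of the oral ectoderm and pituitary, read 7.43, 7.43 and 7.75 in KO heads, against 7.59, 7.41 and 7.48 in WT heads, and overlapped between the groups.

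Lhx8, a gene of the ventral telencephalon and of the oral mesenchyme, varied more between heads than any of the 9 genes. It read 8.88, 8.16 and 8.52 in KO heads, against 7.31, 8.86 and 8.67 in WT heads, with WT head 1 lowest by 0.84. WT head 1 was also the lowest head for Prrx1, a mesenchyme gene, with 10.49 there, against 10.80 to 11.17 in KO heads and 11.07 and 11.19 in the other WT heads. The 10 mesenchyme and neural crest markers together had mean deviations of 0.11, −0.09 and −0.08 in KO heads, against −0.07, 0.05 and 0.07 in WT heads, so that list did not set WT head 1 apart. Sox10, a neural crest gene of that list, was lower in all KO heads, at 7.15, 6.84 and 7.22, against 7.33, 7.68 and 7.33 in WT heads (−0.38; limma, adjusted p = 0.699). Lhx8, Prrx1 and Sox10 were singled out after their values were seen. The markers of surface ectoderm (8 measured) had a median difference of −0.0039, and those of endothelium, blood and macrophages (10 measured) one of −0.05, with 0 passing in limma. Of the ectoderm genes, Cldn6 (−0.32) and Epcam (−0.11) were lower and Cdh1 (+0.16) and Trp63 (+0.10) higher in KO heads without overlap (limma, adjusted p = 0.448, 0.848, 0.791 and 0.874). Over all probe sets 6.76% were lower and 4.15% higher without overlap. Of the endothelial, blood and macrophage genes, 3 of 10 were lower in KO heads without overlap, where 6.76% of all probe sets were. These were the embryonic globin gene Hbb-bh1 (−0.21) and the macrophage genes C1qb (−0.30) and Cd68 (−0.07), with adjusted p-values of 0.424, 0.448 and 0.891 in limma.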
